A study of Mus musculus with 3 samples.

Results

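The genes of the unfolded protein response examined here were Xbp1, Ern1, Atf6, Eif2ak3, Ddit3, Atf4, Hspa5, Pdia4, Pdia6 and Herpud1. They were listed by name as genes of this response, with earlier results of these data known, and every region of the deposited comparison table and every peak of both deposited lists whose nearest gene carried one of these names was kept. That gave 46 of 543367 compared regions, 20 of 237322 peaks of the Ad-Ets-1 list and 29 of 339856 peaks of the Ad-GFP list. Of the 10 genes, 6 were named by at least 1 region. Pdia4, Hspa5, Ddit3 and Atf4 were named by none.

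The data are Ets-1 ChIP-seq libraries of Min6, an insulin-secreting line derived from a mouse insulinoma and kept in 25 mM glucose. Cells were infected for 24 h with Ad-Ets-1, an adenovirus that overexpresses the transcription factor Ets-1, or with the control virus Ad-GFP, and chromatin of both was precipitated with the same Ets-1 antibody. The remaining library is input chromatin of Min6 cells, whose virus the labels do not state. Each group is 1 library of 1 cell line, so no difference below could be checked against replicates, and p-values are not reported. The promoter that drives the transgene is not given in the sources used here, and RNA was not measured. The libraries held 1938473 reads (Ad-Ets-1), 1775757 reads (Ad-GFP) and 3937471 reads (input). Spread evenly over the chromosomes, these totals would put 0.177 (Ad-Ets-1), 0.162 (Ad-GFP) and 0.360 (input) reads into a region as wide as that over the Pdia6 start. The member regions held 0 to 8 reads in each precipitated library and 0 or 1 in the input. A region was listed because it stood out in at least 1 precipitated library, so 0 reads in the other library is partly what such a list selects.

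The unfolded protein response adjusts the protein-folding capacity of the endoplasmic reticulum (ER). Its sensors in the ER membrane are IRE1 (Ern1), which splices the Xbp1 transcript, PERK (Eif2ak3), which slows translation and favours that of Atf4, and ATF6, which is cleaved in the Golgi and moves to the nucleus. Their targets include the chaperone BiP (Hspa5), the disulfide isomerases Pdia4 and Pdia6, Herpud1 of ER-associated degradation, and Ddit3, the transcription factor CHOP that can promote cell death. β cells, which fold large amounts of proinsulin, rely on this response. ATF6 and XBP1 act through the ER stress element, in which CCAAT and CCACG stand 9 bases apart.

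The sequences that bear on the strongest regions are those at the Ad-Ets-1 peaks over the starts of Xbp1, Pdia6 and Ern1. They are from GRCm38.p6, the assembly of mm10, written 5′ to 3′ along the gene. Capitals mark the ER stress element and CCGGAAG, the ETS word CCGGAAGT without its last base, on either strand (CTTCCGG is CCGGAAG on the opposite strand). The Xbp1 and Ern1 sequences are 201 bases around the peak summit (chr11:5520734-5520934, plus strand, and chr11:106487773-106487973, minus strand). The Pdia6 sequence is the RefSeq promoter window (chr12:17266339-17266638, plus strand), from 250 bases before to 50 after the start that RefSeq gives. It begins upstream of the peak region, and the 201 bases around the Pdia6 summit hold no complete ER stress element. The Xbp1 RefSeq window holds none either. Distances to a gene start are measured from the annotated start of the deposited transcripts instead, which for Pdia6 is 17266545 and lies upstream of the RefSeq one.
Xbp1: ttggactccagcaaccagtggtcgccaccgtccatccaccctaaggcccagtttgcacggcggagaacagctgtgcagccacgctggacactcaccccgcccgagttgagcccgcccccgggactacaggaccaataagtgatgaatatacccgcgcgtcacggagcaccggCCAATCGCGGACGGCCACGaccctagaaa
Pdia6: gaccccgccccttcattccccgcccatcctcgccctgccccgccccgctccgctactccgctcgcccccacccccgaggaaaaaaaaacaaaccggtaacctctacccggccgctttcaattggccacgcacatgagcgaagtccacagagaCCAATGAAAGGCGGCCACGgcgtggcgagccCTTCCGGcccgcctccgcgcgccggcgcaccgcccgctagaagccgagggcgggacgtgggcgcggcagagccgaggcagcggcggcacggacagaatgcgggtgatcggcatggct
Ern1: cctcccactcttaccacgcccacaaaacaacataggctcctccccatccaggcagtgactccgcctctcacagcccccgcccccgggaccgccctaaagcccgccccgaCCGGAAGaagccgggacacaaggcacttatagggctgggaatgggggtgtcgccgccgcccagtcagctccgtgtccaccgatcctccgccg

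In Xbp1, the ER stress element was centred 81 bases downstream of the summit and ended 81 bases before a further annotated transcript start, at 5521005. In Pdia6 the element lay inside the peak region, centred 98 bases upstream of its summit and ending 36 bases before the start, with CCGGAAG 17 bases before the start. In Ern1, CCGGAAG was centred 12 bases downstream of the summit and ended 6 bases before the start. Hspa5, for which no region was listed, has the element in its promoter too, and the copies compare as follows.
Xbp1: CCAATCGCGGACGGCCACG
Pdia6: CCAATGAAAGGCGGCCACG
Hspa5: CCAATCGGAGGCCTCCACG

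Words were searched on both strands. Of the 10 genes, 9 had a RefSeq promoter window of 300 bases, Atf6 being the one without. The ER stress element was in 2 of the 9 windows (Hspa5 and Pdia6), against 0.119% of 32851 RefSeq promoter windows. Its second form, ATTGG and CCACG 1 base apart, was in Herpud1 alone, against 0.0365% of windows, and the unfolded protein response element TGACGTGG was in none, against 0.676%. The ETS word CCGGAAGT was in 1 of the 9, Ddit3, against 3.89% of windows, and CCGGAAG, searched after the windows had been seen, was in Ddit3, Ern1 and Pdia6, against 8.86%. The core GGAA, which lies within both ETS words, was in 7 of the 9 and in 96.0% of windows. The Xbp1 promoter window held GGAA at 5520506, 5520577 and 5520668, all inside the region of its Ad-Ets-1 peak at the start. The 201 bases around the summit of that peak, printed above, held none, whereas 87.5% of 833 Ad-Ets-1 summit windows at gene starts did. Of 833 windows of 201 bases at Ad-Ets-1 summits over the start of a protein-coding gene, 1 held the ER stress element, that of Xbp1, and 11.2% held CCGGAAG. A match describes letters only.

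The Ad-Ets-1 peaks at the starts of Xbp1, Pdia6 and Ern1 had no reads in the Ad-GFP library. At Xbp1, which encodes the transcription factor that IRE1 activates, the region over the start (chr11:5520493-5520970, promoter) held 8 reads with Ad-Ets-1, 0 with Ad-GFP and 0 in the input. The reads thus lay in the Ad-Ets-1 library alone. After scaling to library totals the ratio was 2.44, taking a floor of 3 reads for a library at 0. Such a ratio depends on the floor, has no interval and is not a bound. At Pdia6, a disulfide isomerase, the region over the start (chr12:17266461-17266709, promoter) held 5 reads with Ad-Ets-1, 0 with Ad-GFP and 0 in the input. Its ratio with the floor was 1.53. At Ern1, which encodes the sensor IRE1, the region over the start (chr11:106487705-106487953, promoter) held 4, 0 and 0 reads in the same order. Its ratio with the floor was 1.22. Together these regions held 17 reads with Ad-Ets-1 and 0 with Ad-GFP. All were called with Ad-Ets-1 alone, so this sum partly restates how they were listed.

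The authors' deposited table gives these peaks a fold enrichment of 3.60 (Xbp1), 3.57 (Pdia6) and 3.28 (Ern1). Deposited q-values were 0.0376, 0.0377 and 0.285, so that Xbp1 and Pdia6 stood just inside a q of 0.05 and Ern1 outside it. An Ad-Ets-1 peak covered the start of 3 of the 10 member genes, against 3.95% of 21951 protein-coding genes. An Ad-GFP peak covered the start of 0 of 10, against 3.25%. The members were listed with earlier results of these data known, so these shares cannot be told apart from that choice. A lack of Ad-GFP reads was common at such places: of the 484 regions over a protein-coding gene start with 4 or more Ad-Ets-1 reads, 51.9% had 0 Ad-GFP reads. In all, 218 promoter regions held 8 or more reads with Ad-Ets-1 and 0 with Ad-GFP.

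**Figure D1:**
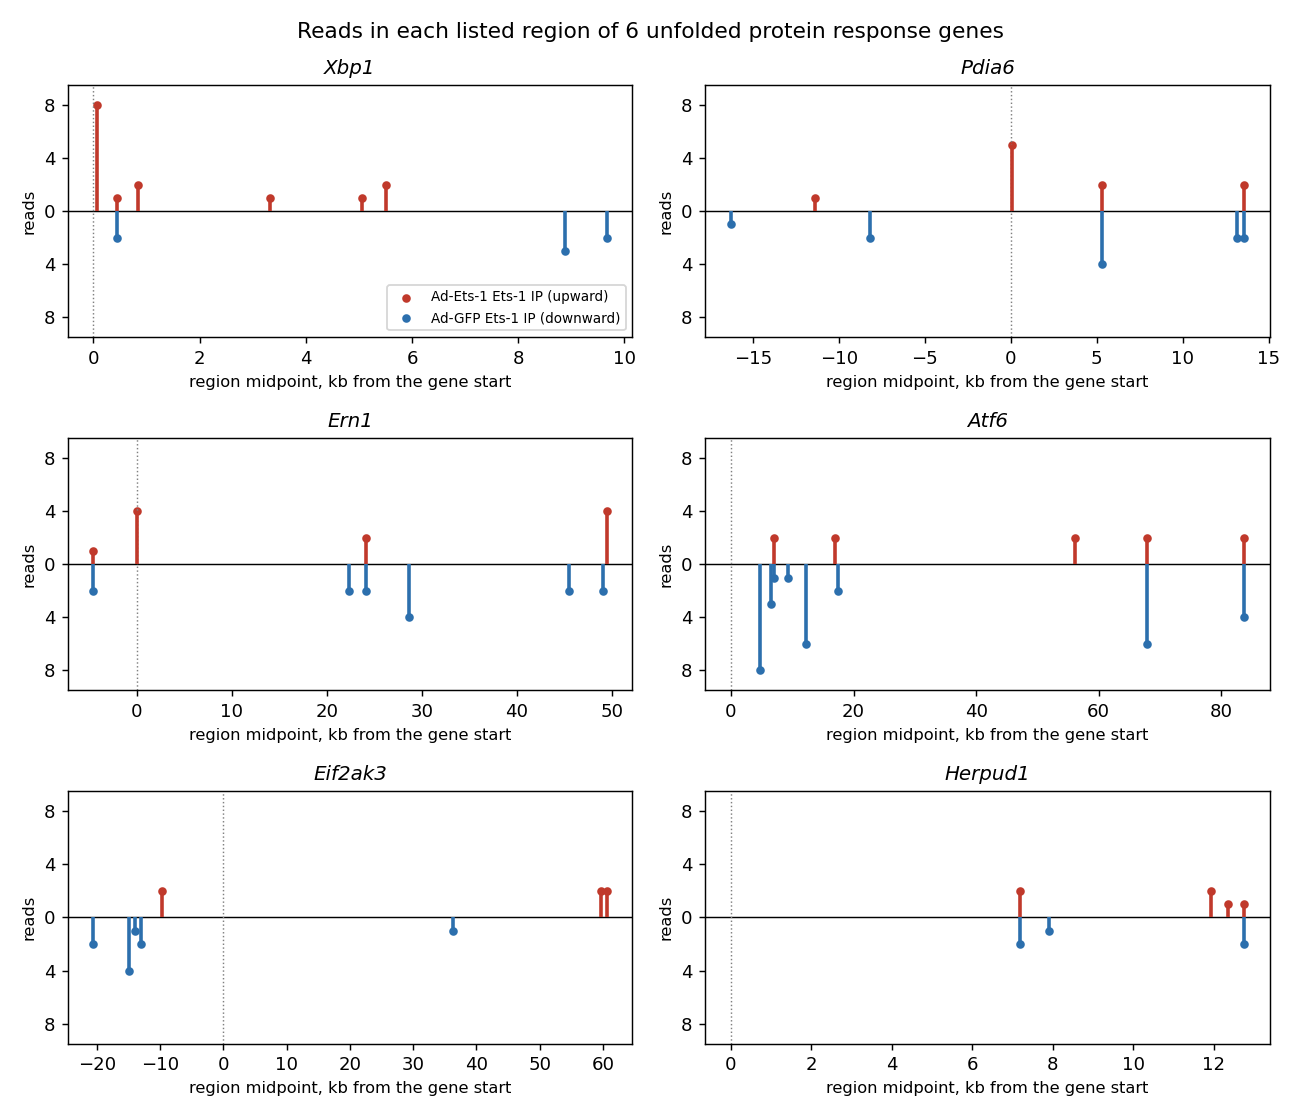
Reads in each of the 46 listed regions of the 6 named genes, by distance of the region's midpoint from the outermost annotated gene start (kb, along the gene). Ad-Ets-1 reads point up and Ad-GFP reads down. At the starts of Xbp1, Pdia6 and Ern1 there are 8, 5 and 4 Ad-Ets-1 reads and no Ad-GFP reads, while Atf6 holds no more than 2 Ad-Ets-1 reads and up to 8 Ad-GFP reads in a region.

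The other promoter regions of the members were weaker and lay away from the outermost starts. Xbp1 had a region at its transcript start 346 bases into the gene (chr11:5520981-5521218), with 1 read with Ad-Ets-1 and 2 with Ad-GFP. A region just before its start at 1004 bases (chr11:5521365-5521613) held 2 and 0 reads. Pdia6 had a region called in both libraries inside the gene (chr12:17271700-17272052), with 2 reads with Ad-Ets-1 and 4 with Ad-GFP, a ratio of 0.458 (95% interval 0.00776 to 8.80). Intervals are exact binomial ones, at 95%, with 2 reads taken as 1 fragment, and cover counting error only. Herpud1, an ER membrane protein of ER-associated degradation, had regions at and after the start of a transcript that begins 7093 bases into the gene, with 2 and 0 reads with Ad-Ets-1 and 2 and 1 with Ad-GFP. Its second form of the ER stress element lies at the outermost start, where no region was listed: ATTGGGCCACG (chr8:94386377-94386387).

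By gene, a promoter peak was listed for 4 of 10 members with Ad-Ets-1 (Xbp1, Pdia6, Ern1 and Herpud1), against 37.7% of the 19054 genes with a symbol that name any region or peak. With Ad-GFP it was listed for 3 of 10 (Xbp1, Pdia6 and Herpud1), against 48.6%. Those percentages leave out genes named by no region. Counted likewise, the members were 4 of 6 with Ad-Ets-1 and 3 of 6 with Ad-GFP. At a q of at most 0.05, 2 of the 6 remained with Ad-Ets-1, Xbp1 and Pdia6, against 1.66% of the named genes, and 0 of 6 with Ad-GFP, against 0.75%. Here too the members had been listed with earlier results of these data known.

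Atf6, which encodes the ATF6 sensor, had 10 regions and no promoter region, and more reads with Ad-GFP. Its regions summed to 10 reads with Ad-Ets-1 and 31 with Ad-GFP over 3.63 kb, that is 2.75 and 8.53 reads per kb, with 0 in the input. The ratio was 0.296 (0.0777 to 0.761). An intronic region 4300 bases into the gene (chr1:170862750-170863471) held 0 reads with Ad-Ets-1 and 8 with Ad-GFP, a ratio of 0.344 with the floor of 3 reads. A region 12052 bases into the gene (chr1:170855386-170855719) held 0 and 6, and an exon region called in both libraries (chr1:170799739-170800184) held 2 and 6, a ratio of 0.305 (0.00582 to 3.80). No Atf6 region held more than 2 Ad-Ets-1 reads, and 7 of the 10 had more reads with Ad-GFP. Those 7 were the Atf6 regions called with Ad-GFP, so this count restates how the regions were listed. The interval of the summed ratio covers counting error only and not this selection. Ratios as low as that of Atf6 were not rare: among 7731 genes with 20 or more summed reads, 7.04% lay at or under it.

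Of the other sensors, Ern1 had 8 regions with 11 reads with Ad-Ets-1 and 14 with Ad-GFP, a ratio of 0.720 (0.218 to 2.73). Besides the start it had 6 intronic regions, with 0 to 4 reads in each library, of which the one with most Ad-Ets-1 reads (chr11:106438263-106438569) held 4 and 0. Eif2ak3, which encodes PERK, had no promoter region. Of its 8 regions, 5 were distal, upstream of the gene, 1 in an intron and 2 in the 3′ UTR, and they held 6 and 10 reads, a ratio of 0.550 (0.0741 to 2.15). The strongest (chr6:70829471-70829863) held 0 with Ad-Ets-1 and 4 with Ad-GFP. At neither gene was a difference detectable at this depth.

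Summed over all its regions, Xbp1 held 15 reads with Ad-Ets-1 and 7 with Ad-GFP, a ratio of 1.96 (0.575 to 9.16). Without the region over its start, the ratio was 0.916. Pdia6 held 10 and 11 reads (0.833, 0.245 to 3.43) and Herpud1 6 and 5 (1.10, 0.207 to 8.34). Of the 8 Xbp1 regions, 3 lay beyond the annotated end of the gene, and 2 of those were classed by the authors as 3′ UTR. Intervals of all 3 genes span 1.

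**Figure D2:**
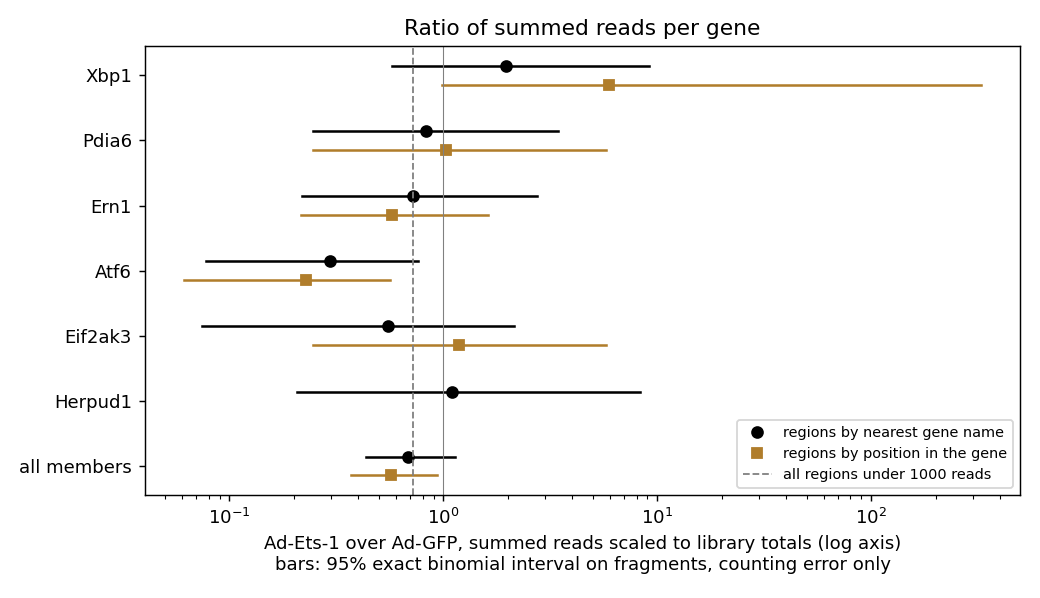
Ratio of summed reads, Ad-Ets-1 over Ad-GFP, scaled to library totals on a log axis, for each gene and all members. Bars are 95% exact binomial intervals on fragments. Circles use the regions named for a gene and squares those lying in it. The dashed line marks all regions of the table under 1000 reads, at 0.719. Atf6 is the one gene whose interval stays under 1 both ways. Its interval by name, up to 0.761, includes the dashed line, and that by position, up to 0.563, does not. The Atf6 regions added by position held Ad-GFP reads and none with Ad-Ets-1. The intervals do not cover how regions were listed.

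Called by fold, with 5 or more reads in either precipitated library and a ratio of at least 2 or at most 0.5, 1 of 46 member regions was higher with Ad-Ets-1 (the Xbp1 start), against 0.796% of all regions. It was 1 of 8 promoter regions, against 1.7% of all promoter regions. Called lower were 3 of 46, all in Atf6, against 1.6% of all regions, and 0 of 8 promoter regions, against 1.82%. Scaled to reads in listed regions, 2 were called lower, since the Atf6 region at 170855386 then had a ratio of 0.587. Among genes with 20 or more summed reads, 0 of 4 members reached a ratio of 2, against 3.4% of such genes, and 1 of 4, Atf6, was at or under 0.5, against 25.2%. The median ratio of these genes was 0.711.

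Over all 46 regions the members held 58 reads with Ad-Ets-1 and 78 with Ad-GFP in 13.2 kb, or 4.41 and 5.92 reads per kb. The ratio of 0.681 (0.433 to 1.13) was close to the 0.719 of all regions under 1000 reads. Without Atf6 it was 0.936 (0.558 to 1.75). Regions called in both libraries made up 3 of the 46, those called with Ad-Ets-1 alone 17, and those with Ad-GFP alone 26. These are 6.52%, 37.0% and 56.5%, against 6.13%, 37.5% and 56.4% of all regions.

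The annotation classes divided the reads unevenly. The 8 promoter regions held 24 reads with Ad-Ets-1 and 9 with Ad-GFP, a ratio of 2.44 (0.797 to 8.53), against 0.786 over all promoter regions under 1000 reads. Intronic regions, 17 in number, had 16 reads with Ad-Ets-1 and 40 with Ad-GFP. Their ratio was 0.366 (0.128 to 0.777), and that of all intronic regions under 1000 reads was 0.691. Promoters made up 17.4% of the member regions and 7.69% of all regions. The 12 distal intergenic regions held 8 and 16 reads, the 5 of the 3′ UTR class 5 and 5, and the 3 exonic ones 3 and 8. The difference between the promoter and intron ratios was not tested, and most Ad-Ets-1 promoter reads came from the 3 starts and most Ad-GFP intron reads from Atf6.

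**Figure D3:**
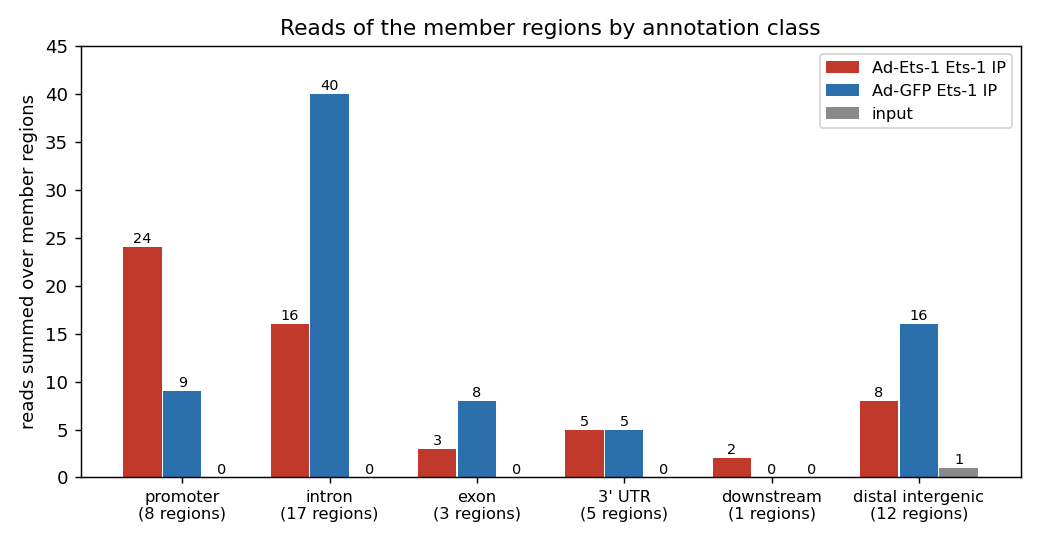
Reads summed over the member regions of each annotation class, with bars for Ad-Ets-1, Ad-GFP and input. Promoters held 24 Ad-Ets-1 reads against 9 Ad-GFP reads and introns 16 against 40, while the input bars hold 1 read in all.

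The missing members were not all without reads. The authors assigned each region to the nearest start of a transcript of any kind, and 61.1% of all regions were given a gene without a symbol. By position, 5 regions lay in Pdia4, all named for a gene without a symbol (ENSMUSG00000076060), with 1 read with Ad-Ets-1 and 10 with Ad-GFP (ratio 0.0916, 0.00387 to 1.64). Atf6, Eif2ak3 and Ern1 likewise had 5, 5 and 7 regions named for other genes, and for Ern1 that gene was Icam2. With them Atf6 held 10 reads with Ad-Ets-1 and 40 with Ad-GFP (0.229, 0.0616 to 0.563), and Ern1 15 and 24 (0.573, 0.217 to 1.62). Eif2ak3, without its distal regions, held 9 and 7 (1.18, 0.247 to 5.77). In Xbp1 itself, without the regions beyond its end, 13 and 2 reads remained, a ratio of 5.95 (0.983 to 325).

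In Ddit3 the sole region lay in the 3′ UTR, with 0, 1 and 1 reads for Ad-Ets-1, Ad-GFP and input. Its promoter holds the full ETS word (CCGGAAGT, minus strand, chr10:127290593-127290600), and the nearest listed region lay 5375 bases from the start. Hspa5 and Atf4 had no region in the gene or within 3 kb before it, as did 17.9% of protein-coding genes. The nearest lay 23756 bases from the start of Hspa5 and 13360 bases from that of Atf4. The table lists regions that stood out and no others, so the reads at these starts are not known. By position the 54 regions of all members held 59 reads with Ad-Ets-1 and 95 with Ad-GFP, a ratio of 0.569 (0.371 to 0.936). That interval includes the 0.719 of all regions under 1000 reads.

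A wider list held 46 other genes of the response. A region was named for 36 of them, and the 192 regions held 217 reads with Ad-Ets-1 and 269 with Ad-GFP, a ratio of 0.739 (0.575 to 0.945). That ratio was close to the 0.719 of all regions under 1000 reads, which its interval includes. A promoter peak was listed with Ad-Ets-1 for 9 of these 36 and with Ad-GFP for 17 of them, set against 37.7% (Ad-Ets-1) and 48.6% (Ad-GFP) of all genes named by a region or peak. By group, again over genes named by a region, these were 0 and 1 of 7 genes of the PERK and ATF4 branch. They were 2 and 3 of 6 of the IRE1 and ATF6 branches and their processing. Among chaperones and folding enzymes they were 4 and 8 of 14, and 3 and 5 of 9 of degradation and translocation. Sdf2l1, a component of an ER chaperone complex, was the one gene of this list with a promoter peak at a q of at most 0.05, in the Ad-GFP list (q of 0.0258). That region (chr16:17132688-17133711) held 6 reads with Ad-Ets-1 and 6 with Ad-GFP, a ratio of 0.916 (0.123 to 6.84).

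Of the 192 regions, 1 was called higher and 1 lower, against 0.796% and 1.6% of all regions, so neither count stands above the background. Both are named after their values were seen. The higher one was an intron of Ero1lb, an ER oxidase of β cells (chr13:12559533-12559991), with 9 reads with Ad-Ets-1 and 1 with Ad-GFP, a ratio of 8.24 (0.513 to 217). The lower one lay at a distance from Asns, asparagine synthetase, an ATF4 target (chr6:7670336-7670573), with 2 and 6 (0.305, 0.00582 to 3.80). Edem1, a degradation factor also picked after its values were seen, had 13 regions with 5 reads with Ad-Ets-1 and 27 with Ad-GFP, a ratio of 0.170 (0.0362 to 0.703).

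Against input, the 46 member regions held 58 (Ad-Ets-1), 78 (Ad-GFP) and 1 (input) reads. The scaled ratio to input was 118 with Ad-Ets-1 (22.4 to 5454) and 173 with Ad-GFP (32.4 to 7705), set against 24.1 with Ad-Ets-1 and 33.6 with Ad-GFP over all regions under 1000 reads. These intervals count precipitated fragments at 2 reads each against single input reads. The lone input read lay in a distal region of Eif2ak3. Input reads at listed regions were scarce throughout, and 93.6% of all regions held none. Even spreading would put 0.360 input reads into each region as wide as that over the Pdia6 start. The input thus lay under even coverage at the member regions, which raises both ratios. Over all regions, 19.0% of nonzero input counts were even, against 72.0% (Ad-Ets-1) and 74.5% (Ad-GFP). A difference in how input reads were counted was not tested. Whether the input served as control when peaks were called is not given in the sources used here, and its part in these ratios was not tested.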

How the data were processed

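Ets-1 ChIP-seq of 2 virus-infected Min6 libraries and an input was analysed from a peak list per precipitated library and a comparison table. FastQC, Trimmomatic, BWA 0.7.12, MACS2 2.1.0 and build mm10 are named in the submitters' processing notes, and their settings were not given in the sources used here. In the peak lists the authors deposited, per the file headers, a fold enrichment (a ratio), −log10 p and q values and a score for each peak. In the table they deposited read counts, RPM of the count plus 1, ratios of RPM to input and a log2 ratio. Peak starts, 0-based, were raised by 1. Annotated transcripts had the same coordinates in GENCODE M21 for 98.9% of those shared.

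Groups came from sample titles, with 1 library each. Counts were scaled to totals recovered from counts and RPM. Ratios have exact conditional binomial intervals (95%) on fragments, since 72.0% (Ad-Ets-1), 74.5% (Ad-GFP) and 19.0% (input) of nonzero counts were even; reads without molecular identifiers are not independent molecules. A library at 0 was set to 3 reads, without an interval; no ratio is given where both hold 3 or fewer. All members are named. Other response genes are named with a region of 10 or more reads or a promoter q of at most 0.05, apart from those said to be picked later. The members and lists were chosen with earlier results of these data known. Intervals were tested on simulated independent counts, with draws at 0 left out. Paired reads and the selection of regions were not simulated. Alternatives were other scalings, fragments, genic regions, 5 or more reads, leaving out satellite-sized regions (1000 or more reads), the strongest region or a gene, other promoter and peak thresholds, and, added after seeing the data, regions by position, leaving out Atf6 and a shorter ETS word. Software was scipy 1.17.1, pandas 2.3.3, numpy 2.4.6, matplotlib 3.10.9 and pysam 0.24.0 under Python 3.11.15.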

Additional observations from a re-analysis of the deposited data

How the results depend on the processing

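No paired analysis was possible because there is 1 library per group. Summed reads of all members stayed under 1 in the ratio of Ad-Ets-1 to Ad-GFP under each of the 8 alternatives run, from 0.569 to 0.936. Summed promoter reads stayed over 1, from 1.70 without Xbp1 to 4.03 with promoters within 1 kb of a start; both ends lie within the main interval, which spans 1. With 1 read added to each count in place of the floor, 2 regions were called higher in place of 1, the Pdia6 start being the second. Scaled to reads in listed regions, 2 in place of 3 were called lower, the Atf6 region at 170855386 having a ratio of 0.587. With 1 read added, the Xbp1 start had a ratio of 8.24 and the Pdia6 start 5.50, so the size of these ratios is set by how 0 reads are treated. The 4 members with a promoter peak with Ad-Ets-1 were 2 at a q of at most 0.05; the 3 with Ad-GFP were 0 at that q and 0 at a fold of at least 3. Scaled to reads in listed regions, the ratios to input were 8.16 with Ad-Ets-1 and 9.35 with Ad-GFP, since these regions hold a smaller share of the input, 2.96%, than of the precipitated libraries, 42.8% and 54.8%. Eif2ak3 moved to a ratio of 3.66 in genic regions alone, which leave out its 5 distal regions. Atf6 ranged from 0.0916 with 5 or more reads to 0.379. At 0 to 8 reads a region, depth limits every comparison of single regions.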
